A study of Mus musculus with 12 samples.

Results

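The 34 genes described here encode the enzymes, transporters and regulators of glycolysis and a set of genes that respond to low oxygen. They were chosen by symbol and cover glucose transporters, glycolytic enzymes, lactate dehydrogenases and carriers, pyruvate dehydrogenase and its kinases, and targets of the hypoxia-inducible factor. They occupied 35 of the 55573 rows of the count table. The additional row is a second Aldoa annotation (ENSMUSG00000114515), with at most 18 counts in a library. Of the 35 rows, 34 passed the filter on low counts, and Car9, with 0 to 18 counts per library, did not. The table held suspension sphere cultures, called tumourspheres, of the mouse mammary tumour lines A1005, A1129 and A1471, 3 in all. Each of them came from a separate spindloid tumour of an MMTV-Metmt;Trp53fl/+;Cre mouse, in which the mouse mammary tumour virus promoter drives a mutant Met receptor and Cre, which can remove 1 copy of Trp53. Every group therefore carried the same alleles, and the 3 lines are the replicates. Spheres received the vehicle DMSO, the Met inhibitor Crizotinib, the FGFR inhibitor PD173074 or both (the combination) for 24 h, giving 4 groups of 3 libraries. Age of the mice was not given in the sources used here.

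Glycolysis splits glucose into pyruvate in the cytosol. Glucose enters through facilitative transporters, is trapped by hexokinase, committed by phosphofructokinase and carried by the lower enzymes to pyruvate. From there lactate dehydrogenase makes lactate, or pyruvate dehydrogenase feeds the mitochondrion. Many of these genes are targets of the hypoxia-inducible factor HIF, whose alpha subunit is marked for degradation by oxygen-dependent prolyl hydroxylases, and of Myc. Tumour cells often keep the pathway high in the presence of oxygen.

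HIF binds DNA at short cores within hypoxia response elements, and Myc and its relatives bind the E-box. In the RefSeq promoter windows (GRCm38.p6, 250 bases before to 50 after each start), the letters ACGTG or GCGTG, on either strand, stood in those of 30 of the 33 member genes with a window (90.9%). The shares were 46.7% of all 27025 genes with a window and 68.1% of the tested genes with a window, among which the members had 29 of 32 (90.6%). The E-box CACGTG, which contains ACGTG, stood in 7 of the 33 (21.2%), against 8.09% of all genes and 11.7% of the tested genes. No window was found for Slc2a3. The stretches of 5 members before the start are shown because they hold cores: the 4 that passed the threshold in the combination and Ldha, the dehydrogenase that makes lactate. Capitals mark the cores on either strand. Each stretch is written 5′ to 3′ on the strand of its gene, and a match of letters is no evidence of binding. The Pgam1 stretch lay at chr19:41911676-41911807, plus strand, and that of Ldha at chr7:46845639-46845794, plus strand. Those of Egln3 (chr12:54204079-54204123, minus strand), Ankrd37 (chr8:45999851-46000100, minus strand) and Pdk2 (chr11:95041472-95041517, minus strand) read from the other strand. The Ankrd37 and Ldha stretches lie inside the annotated genes, at a start downstream of the outermost one, and 17 bases of the former overlap an exon. For Pdk2 and Ldha, which have 2 windows each, the one with more cores is shown.
Pgam1: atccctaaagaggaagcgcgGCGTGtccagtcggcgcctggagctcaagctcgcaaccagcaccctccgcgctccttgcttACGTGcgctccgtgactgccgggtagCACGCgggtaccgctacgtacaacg
Egln3: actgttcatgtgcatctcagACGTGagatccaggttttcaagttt
Ankrd37: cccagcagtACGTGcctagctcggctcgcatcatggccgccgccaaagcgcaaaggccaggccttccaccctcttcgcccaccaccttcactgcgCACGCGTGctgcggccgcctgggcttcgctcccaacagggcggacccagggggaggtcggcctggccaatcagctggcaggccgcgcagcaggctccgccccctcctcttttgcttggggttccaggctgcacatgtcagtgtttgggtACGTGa
Pdk2: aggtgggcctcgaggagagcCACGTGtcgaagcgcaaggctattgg
Ldha: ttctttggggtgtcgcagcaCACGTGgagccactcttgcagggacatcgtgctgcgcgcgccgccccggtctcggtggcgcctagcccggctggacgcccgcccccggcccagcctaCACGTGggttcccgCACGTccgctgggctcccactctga
The Pdk2 stretch held CACGTG at 1 place and the Ldha stretch at 2, whereas the Egln3 stretch held 1 core without the E-box. The other Pdk2 window held no core before the start, and the other Ldha window held 1 core and no CACGTG there.

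Totals ran from 13031492 to 17750476 counts per library. Of the 7 mesenchymal markers Vim, Fn1, Sparc, Twist1 and Zeb1 were detected in every library, while Snai2 had 0 to 32 counts and Cdh2 0 to 6. The 7 summed to 3288 to 9706 counts-per-million (CPM) over all libraries. The range was 3462 to 5177 CPM with DMSO and 3550 to 9706 CPM with the combination. The 9 epithelial markers summed to 7.54 to 53.4 CPM, and of these Krt5 and Cldn7 were at 0 in all libraries. The 6 leukocyte markers summed to 4.34 to 31.3 CPM with DMSO and 8.22 to 42.0 CPM with the combination. Of them, 4 had no more than 3 counts in any library, and the part of these levels in the results was not tested. As a check of the inhibitors, Dusp6, a phosphatase induced by ERK signalling, had 225, 204 and 118 CPM in A1005, A1129 and A1471 with DMSO and 9.51, 4.01 and 3.17 CPM with the combination (log2 fold change -5.03, SE 0.54, adjusted p = 0.000486). The check held 6 genes (Dusp6, Spry4, Etv4, Etv5, Met and Fgfr1). Their median log2 fold change was -4.87 with the combination, -1.03 with PD173074 and 0.14 with Crizotinib. With Crizotinib 5 of the 6 were positive and 0 were called in either edgeR fit, so the check showed no fall with Crizotinib alone.

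In the combination, most glycolytic and hypoxia genes lay below DMSO, while Pdk2, Pdk4, Ldhb and Aldoc lay above it. In what follows ± after a fold change is its SE, and a blocked value is one from the fit with the line as a block. The question of this comparison is what blocking both receptors does to the tumourspheres. With edgeR's quasi-likelihood test in its unpaired form, 1 of 34 member rows was higher (2.94%, Pdk2) and 3 were lower (8.82%, Pgam1, Egln3 and Ankrd37), against 6.1% of all 13836 tested genes higher and 8.28% lower. A second fit took the line as a block, setting each treated library against DMSO of its own line. It called 5 rows higher (14.7%) and 22 rows lower (64.7%), against 28.6% and 26.2% of all genes. The median log2 fold change of the members was -0.56 in both fits, and that of all tested genes was 0.024 unpaired and 0.027 with the block. In all 3 lines 21 of 34 rows were lower (61.8%, all genes 32.5%), 5 were higher (14.7%, all genes 34.3%) and 8 went both ways (23.5%, all genes the remainder). The 5 higher ones include Pdk4, which in A1471 had 0 counts with DMSO and 1 with the combination. Every combination library lay below every DMSO library for 8 rows (23.5%, all genes 16.1%) and above for Pdk2 alone (2.94%, all genes 13.8%). The 8 include the second Aldoa row, with 17, 7 and 6 counts under DMSO and 5, 1 and 5 under the combination. Its nearest values were 0.414 CPM with DMSO and 0.377 CPM with the combination, both in A1471. That row is also among the 21 lower rows and the 22 called lower with the block. Because the libraries are bulk samples, fewer cells of a kind and less RNA per cell cannot be told apart. The calls numbered 4 in the unpaired fit and 27 with the block.

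**Figure D1:**
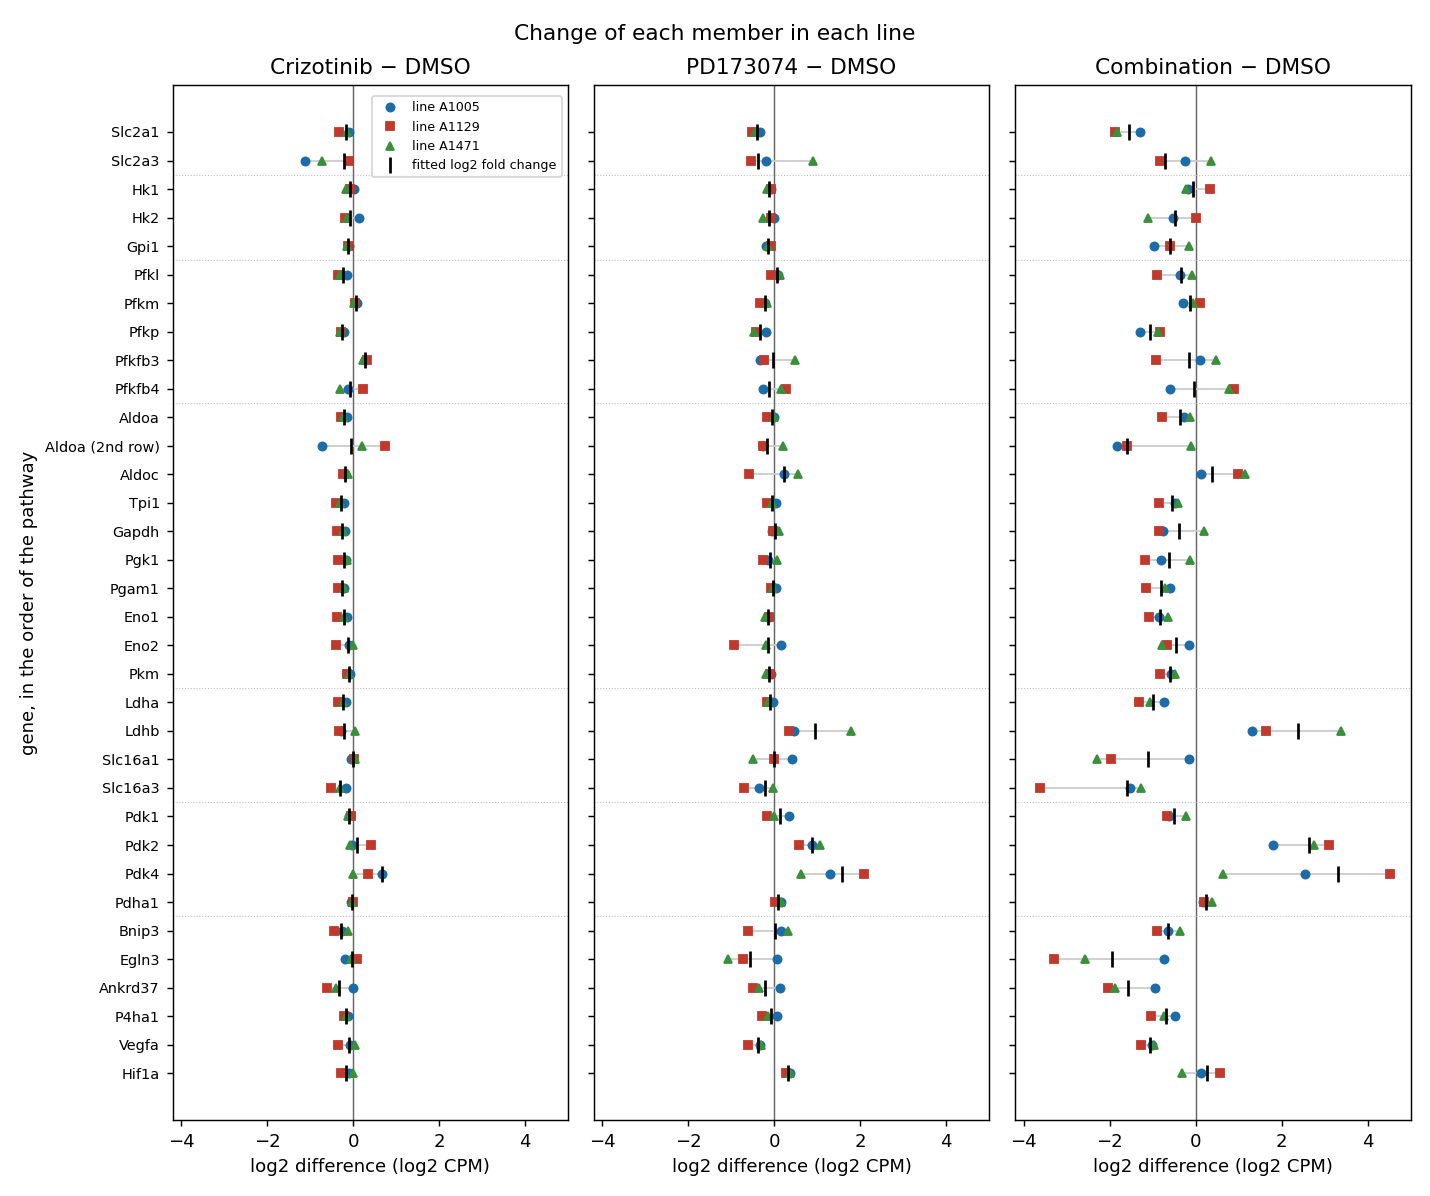
Log2 difference in CPM of each of the 34 tested member rows against DMSO in lines A1005, A1129 and A1471 (x axis, 1 panel a treatment; y axis, genes in the order of the pathway), with the black bar giving the unpaired fitted log2 fold change. The points lie close to 0 for Crizotinib and move left for most genes in the combination, where Pdk2 and Ldhb stand to the right in all 3 lines and Gapdh lies right of 0 in A1471 only among its 3 points.

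The 4 members that passed in the unpaired fit were 1 enzyme of lower glycolysis, 2 hypoxia response genes and 1 kinase. Pgam1, phosphoglycerate mutase (chr19:41911923-41918660, plus strand), had 259, 272 and 301 CPM in A1005, A1129 and A1471 with DMSO and 170.5, 123 and 185 CPM with the combination. It fell in each line, and the combination lay below all libraries of the 3 other groups (log2 fold change -0.80 ± 0.17, adjusted p = 0.0128 unpaired, -0.81 ± 0.11, adjusted p = 0.000185 blocked). Egln3, the prolyl hydroxylase PHD3 that HIF itself induces (chr12:54178981-54203860, minus strand), had 212, 302 and 286 CPM with DMSO and 127, 30.9 and 48.2 CPM with the combination. Its fall was smallest in A1005 and the groups did not overlap (log2 fold change -1.95 ± 0.47, adjusted p = 0.0229 unpaired, -2.05 ± 0.45, adjusted p = 0.00324 blocked).

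Ankrd37, a small ankyrin repeat protein gene known as a HIF target (chr8:45996902-46005707, minus strand), had 12.7, 13.02 and 16.3 CPM with DMSO and 6.56, 3.07 and 4.38 CPM with the combination. It too fell without overlap (log2 fold change -1.58 ± 0.32, adjusted p = 0.0109 unpaired, -1.63 ± 0.20, adjusted p = 0.000121 blocked). Of its exons, 406 of 1539 bases lie opposite exons of Ufsp2 and Lrp2bp, whose reads could not be told apart without strand. Pdk2, a kinase that switches pyruvate dehydrogenase off (chr11:95026258-95041354, minus strand), had 5.31, 3.68 and 5.18 CPM with DMSO and 19.0, 32.9 and 35.8 CPM with the combination. Pdk2 rose in each line and stood above all 9 other libraries (log2 fold change 2.63 ± 0.34, adjusted p = 0.00129 unpaired, 2.63 ± 0.28, adjusted p = 5.13e-05 blocked). At an added limit of 1.5 on the absolute log2 fold change, Pgam1 was no longer called. Leaving out a line cost calls in the unpaired fit. Without A1005, Pgam1 had an adjusted p of 0.0633. Without A1129, the adjusted p was 0.126 for Pgam1, 0.204 for Egln3 and 0.0817 for Ankrd37. Without A1471, none of the 4 passed, with 0.114 for Pgam1, 0.267 for Egln3, 0.212 for Ankrd37 and 0.0823 for Pdk2. Fitted on the DMSO and combination libraries alone, the adjusted p was 0.0941 for Pgam1, 0.0918 for Egln3, 0.0695 for Ankrd37 and 0.0236 for Pdk2. The unpaired log2 fold change of Egln3 was -2.88 without A1005, -1.505 without A1129 and -1.69 without A1471. With the block and a line left out, only Egln3 lost its call among the 4, without A1471 (adjusted p = 0.0664).

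**Figure D2:**
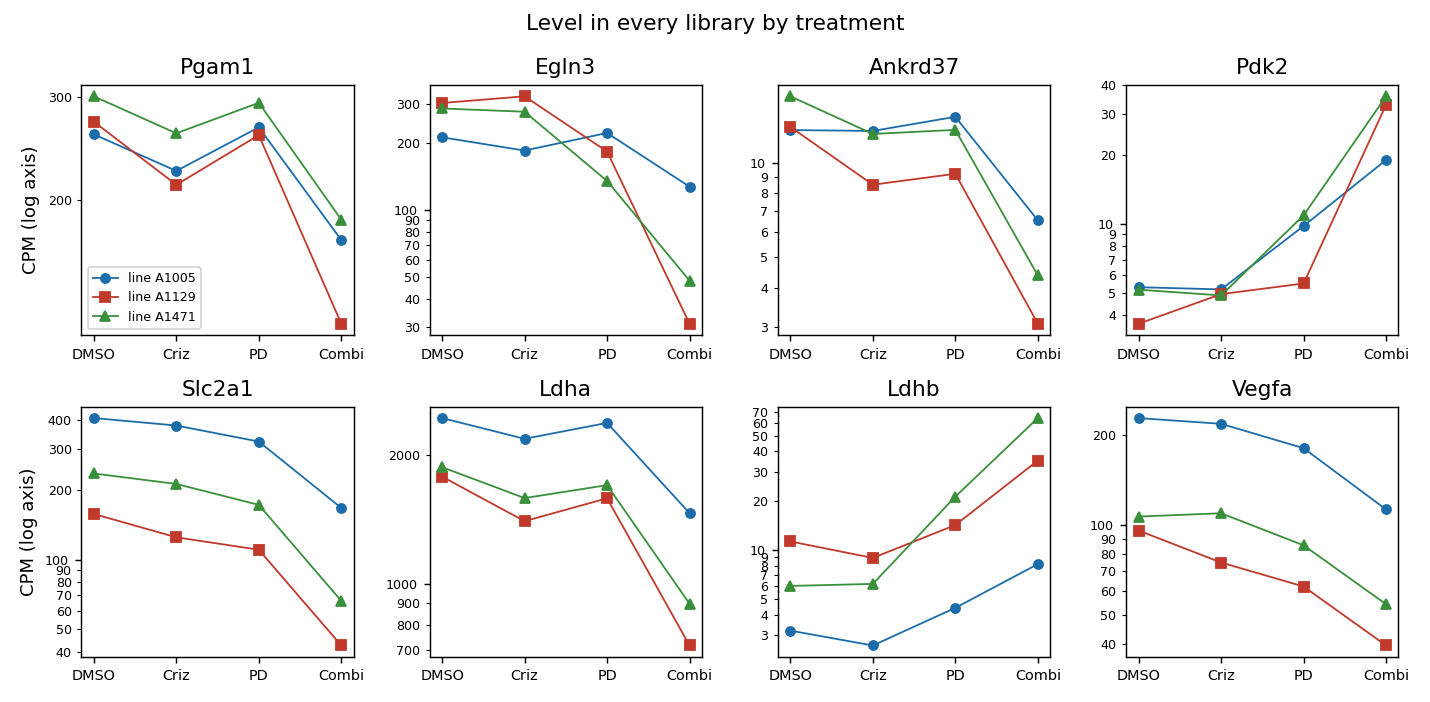
CPM on a log axis for 8 members by treatment (Criz, Crizotinib; PD, PD173074; Combi, both), with 1 point a library and a line joining the libraries of each cell line. Combination libraries are lowest within each line for Pgam1, Egln3, Ankrd37, Slc2a1, Ldha and Vegfa and highest for Pdk2 and Ldhb.

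The glucose transporters differed. Slc2a1, the main glucose transporter of most cells, had 409, 158 and 236 CPM with DMSO, 379.8, 125 and 212 with Crizotinib, 324, 110.3 and 172 with PD173074 and 167, 42.6 and 66.3 with the combination. A1005 carried the most in every group, so the groups overlapped although each line dropped. The gene passed in the blocked fit alone (log2 fold change -1.54 ± 0.63, adjusted p = 0.136 unpaired, -1.66 ± 0.12, adjusted p = 4.72e-06 blocked). Slc2a3, the high-affinity transporter, was at most 7 counts per library in A1005 and A1471 and had 52, 48, 32 and 30 counts in A1129 with DMSO, Crizotinib, PD173074 and the combination. It passed in neither fit (log2 fold change -0.72 ± 1.81, adjusted p = 0.85 unpaired, -0.55 ± 0.56, adjusted p = 0.429 blocked).

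Hexokinases phosphorylate glucose. Hk1, the constitutive form, had 275, 164 and 229 CPM with DMSO and 243, 206 and 197 with the combination, with overlapping groups and no call (log2 fold change -0.050 ± 0.27, adjusted p = 0.936 unpaired, -0.015 ± 0.12, adjusted p = 0.928 blocked). Hk2, the form HIF and Myc induce, had 132, 151 and 152 CPM with DMSO and 91.4, 152 and 70.8 with the combination. A1129 had near equal levels and A1471 the largest difference, and the blocked fit called the gene lower (log2 fold change -0.47 ± 0.24, adjusted p = 0.222 unpaired, -0.51 ± 0.19, adjusted p = 0.0452 blocked). Gpi1, the isomerase of the next step, had 1080.0, 543 and 763 CPM with DMSO and 549, 358 and 682 with the combination, and was likewise lower with the block alone (log2 fold change -0.59 ± 0.36, adjusted p = 0.328 unpaired, -0.56 ± 0.15, adjusted p = 0.0101 blocked). Of its 6452 exonic bases, 741 lie opposite Gm26762.

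Phosphofructokinase commits glucose to the pathway, and its subunits differed. Pfkp, the platelet form, had 312, 129.8 and 232 CPM with DMSO and 127, 72.6 and 126 with the combination. It was the lowest of the subunits by fold change, without overlap of the groups, and fell with the block (log2 fold change -1.05 ± 0.47, adjusted p = 0.171 unpaired, -0.995 ± 0.13, adjusted p = 0.000147 blocked). For Pfkp, 748 of its 13401 exonic bases lie opposite Pitrm1. Pfkl, the liver form, had 374, 149 and 289.8 CPM with DMSO and 290.1, 79.5 and 272 with the combination (log2 fold change -0.34 ± 0.58, adjusted p = 0.765 unpaired, -0.44 ± 0.14, adjusted p = 0.0217 blocked). Pfkm, the muscle form, had 231, 83.2 and 144 CPM with DMSO and 188, 89.1 and 138 CPM with the combination and passed in neither fit (log2 fold change -0.14 ± 0.52, adjusted p = 0.903 unpaired, -0.081 ± 0.10, adjusted p = 0.534 blocked). The bifunctional enzymes Pfkfb3 and Pfkfb4 set the level of a sugar phosphate that activates phosphofructokinase. Pfkfb3 had 42.9, 74.0 and 42.0 CPM with DMSO and 46.3, 38.9 and 58.7 with the combination, lower in A1129 and higher in the other two lines (log2 fold change -0.14 ± 0.34, adjusted p = 0.839 unpaired, -0.075 ± 0.25, adjusted p = 0.821 blocked). Pfkfb4 had 29.4, 6.25 and 4.49 CPM with DMSO and 19.3, 11.7 and 7.77 CPM with the combination, lower in A1005 and higher in the other two (log2 fold change -0.047 ± 0.93, adjusted p = 0.984 unpaired, 0.35 ± 0.28, adjusted p = 0.314 blocked). Neither passed, and the sign of the Pfkfb4 fold change differed between the fits.

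The lower enzymes were the most abundant members per length. In DMSO their mean CPM per kilobase of exon (RPKM, ± SD over 3 lines) were 879.9 ± 105 for Pkm, 478 ± 49.4 for Aldoa, 413 ± 92.5 for Gapdh, 408 ± 95.8 for Tpi1, 370.0 ± 62.9 for Pgk1, 195 ± 46.1 for Eno1 and 139.8 ± 10.8 for Pgam1, beside 614 ± 108 for Ldha. Neighbours from Aldoa to Pgk1 in this order differed by less than the larger of their SDs. Of the 10 rows of this step, 1 fell unpaired (all genes 8.28%). With the block, 8 were lower and 1 higher, against 26.2% and 28.6% of all genes.

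Aldoa, the main aldolase, had 1548, 1264 and 1363 CPM with DMSO and 1283, 731 and 1241 with the combination (log2 fold change -0.36 ± 0.23, adjusted p = 0.35 unpaired, -0.39 ± 0.13, adjusted p = 0.0252 blocked). Its second row had 17, 7 and 6 counts under DMSO and 5, 1 and 5 counts under the combination (log2 fold change -1.59 ± 0.73, adjusted p = 0.184 unpaired, -1.58 ± 0.58, adjusted p = 0.0388 blocked). Aldoc, the brain aldolase, had 95.5, 8.81 and 14.8 CPM with DMSO and 105, 17.7 and 33.0 CPM with the combination, and rose with the block (log2 fold change 0.39 ± 1.29, adjusted p = 0.889 unpaired, 0.78 ± 0.26, adjusted p = 0.0258 blocked). A1005 held several times more Aldoc than the other lines in each group. Tpi1, triosephosphate isomerase, had 1350.2, 833 and 1183 CPM with DMSO and 964, 459 and 890.3 CPM with the combination and was lower in every line (log2 fold change -0.54 ± 0.35, adjusted p = 0.351 unpaired, -0.58 ± 0.10, adjusted p = 0.00107 blocked).

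Gapdh, the dehydrogenase that follows, had 2095, 1331 and 1696 CPM with DMSO and 1245, 736 and 1931 with the combination. The combination was lower in A1005 and A1129 and higher in A1471, and neither fit called the gene (log2 fold change -0.39 ± 0.35, adjusted p = 0.527 unpaired, -0.44 ± 0.19, adjusted p = 0.0741 blocked). Pgk1, the first enzyme to make ATP, had 953, 676 and 862 CPM with DMSO and 542, 299.9 and 786 CPM with the combination, again least changed in A1471 (log2 fold change -0.61 ± 0.34, adjusted p = 0.272 unpaired, -0.69 ± 0.17, adjusted p = 0.00585 blocked). Eno1, the main enolase, had 1293, 797 and 1054 CPM with DMSO and 715, 375 and 673 CPM with the combination with no overlap (log2 fold change -0.83 ± 0.32, adjusted p = 0.118 unpaired, -0.86 ± 0.11, adjusted p = 0.000151 blocked). Eno1b, a near-identical copy at another locus, held 199, 123 and 153 CPM with DMSO and 116, 57.9 and 104 with the combination. How counting split reads between the copies is uncertain. Gapdh, which has many processed pseudogenes, carries the same uncertainty.

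Eno2, the neuronal enolase, had 68.9, 35.6 and 53.6 CPM with DMSO and 61.6, 22.6 and 31.2 CPM with the combination (log2 fold change -0.45 ± 0.55, adjusted p = 0.651 unpaired, -0.53 ± 0.19, adjusted p = 0.0385 blocked). Pkm, pyruvate kinase, had 4009, 4197 and 4995 CPM with DMSO, 3834, 3786 and 4641 with Crizotinib, 3800.1, 3926 and 4387 with PD173074 and 2712, 2382 and 3593 with the combination. The combination libraries lay below all 9 others, and the block brought the adjusted p under the threshold (log2 fold change -0.60 ± 0.18, adjusted p = 0.0553 unpaired, -0.62 ± 0.11, adjusted p = 0.00119 blocked). Gene counts do not separate the 2 splice forms of Pkm, and 767 of its 5001 exonic bases also belong to Gm49759 on the same strand.

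With the block, 3 of the 4 lactate genes were lower and Ldhb was higher, against 26.2% and 28.6% of all genes. Ldha had 2444, 1782 and 1875 CPM with DMSO, 2185, 1402 and 1588 with Crizotinib, 2381, 1586 and 1702 with PD173074 and 1464, 717 and 898 with the combination, without overlap of DMSO and combination (log2 fold change -0.99 ± 0.30, adjusted p = 0.0516 unpaired, -1.03 ± 0.12, adjusted p = 7.09e-05 blocked). Ldhb, whose product favours making pyruvate from lactate, was low and had 3.2, 11.2 and 6.01 CPM with DMSO, 2.6, 8.91 and 6.18 with Crizotinib, 4.41, 14.2 and 21.1 with PD173074 and 8.17, 35.2 and 64.0 with the combination. It was higher in every line, most in A1471, and passed with the block (log2 fold change 2.39 ± 0.84, adjusted p = 0.0883 unpaired, 2.19 ± 0.36, adjusted p = 0.000601 blocked). Slc16a1, the lactate carrier MCT1, had 404, 252 and 449.8 CPM with DMSO and 361, 64.2 and 91.6 with the combination. A1129 and A1471 dropped steeply and A1005 little (log2 fold change -1.10 ± 0.59, adjusted p = 0.26 unpaired, -1.37 ± 0.38, adjusted p = 0.0112 blocked). Slc16a3, the carrier MCT4 of lactate-exporting cells, had 87.3, 52.2 and 147 CPM with DMSO and 30.2, 4.14 and 60.5 CPM with the combination, and its largest drop was in A1129 (log2 fold change -1.59 ± 0.86, adjusted p = 0.26 unpaired, -1.95 ± 0.35, adjusted p = 0.000994 blocked). Both carriers were called lower by the blocked fit alone.

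Among the genes of pyruvate dehydrogenase, which passes pyruvate to the mitochondrion, 3 of 4 were higher with the block (all genes 28.6%) and 1 lower (26.2%). Pdk2 is described above. Pdk4, the kinase induced by fasting, had 36, 9 and 0 counts under DMSO, 67, 12 and 0 under Crizotinib, 117, 41 and 1 under PD173074 and 308, 264 and 1 under the combination. It was higher in A1005 and A1129 and was at 0 or 1 count in all libraries of A1471, where no change can be read (log2 fold change 3.31 ± 2.17, adjusted p = 0.36 unpaired, 3.62 ± 0.51, adjusted p = 0.000261 blocked). Pdk1, the kinase HIF induces, had 139.9, 68.3 and 98.6 CPM with DMSO and 90.6, 43.3 and 84.2 with the combination, and was lower in each line (log2 fold change -0.49 ± 0.44, adjusted p = 0.522 unpaired, -0.50 ± 0.14, adjusted p = 0.0113 blocked). Pdha1, the catalytic subunit that the kinases act on, had 228, 523 and 348 CPM with DMSO and 257, 594 and 452 CPM with the combination (log2 fold change 0.25 ± 0.44, adjusted p = 0.775 unpaired, 0.25 ± 0.084, adjusted p = 0.0294 blocked). The difference was small in each line, and 603 of its 3734 exonic bases lie opposite Map3k15.

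Of the 6 tested hypoxia response genes, 2 fell unpaired (Egln3 and Ankrd37, above) and 5 were lower with the block, against 8.28% and 26.2% of all genes. Bnip3, a mitophagy receptor, had 196, 143 and 114 CPM with DMSO and 127, 77.0 and 88.1 with the combination (log2 fold change -0.63 ± 0.34, adjusted p = 0.26 unpaired, -0.64 ± 0.15, adjusted p = 0.00476 blocked). Of its exons, 504 of the 2265 exonic bases lie opposite Gm45507. P4ha1, a collagen prolyl hydroxylase, had 275, 130.4 and 257 CPM with DMSO and 197, 62.9 and 155 CPM with the combination (log2 fold change -0.68 ± 0.51, adjusted p = 0.434 unpaired, -0.75 ± 0.11, adjusted p = 0.000285 blocked). Vegfa, the endothelial growth factor, had 228, 95.7 and 107 CPM with DMSO, 218, 74.8 and 109 with Crizotinib, 181, 62.2 and 85.4 with PD173074 and 113, 39.5 and 54.2 with the combination. Its drop was of like size in the 3 lines (-1.02, -1.27 and -0.97 on the log2 scale) from unequal DMSO levels, and only the blocked fit called it (log2 fold change -1.06 ± 0.58, adjusted p = 0.263 unpaired, -1.09 ± 0.093, adjusted p = 1.29e-05 blocked). Hif1a, the oxygen-regulated subunit itself, had 209.8, 567 and 318 CPM with DMSO and 228, 837 and 256 with the combination. It was higher in A1005 and A1129, lower in A1471 and passed in neither fit (log2 fold change 0.27 ± 0.59, adjusted p = 0.823 unpaired, 0.16 ± 0.18, adjusted p = 0.474 blocked). Its protein is controlled by degradation, which counts of RNA do not measure. Car9, carbonic anhydrase IX, a classic HIF target, had 6, 18 and 5 counts under DMSO, 12, 0 and 5 counts under the combination and was not tested.

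Several calls of the blocked fit depended on 1 line. In edgeR's blocked refits, the adjusted p without A1005 was 0.155 for Hk2, 0.0967 for Gpi1, 0.0905 for Pfkl, 0.088 for Aldoa, 0.0651 for Pgk1 and 0.0799 for Pdha1. Without A1129 it was 0.104 for Gpi1, 0.211 for Pfkl, 0.224 for Aldoa, 0.111 for the second Aldoa row, 0.0801 for Aldoc, 0.0977 for Pgk1, 0.0899 for Eno2, 0.123 for Slc16a1, 0.11 for Pdk1 and 0.072 for Pdha1. Without A1471 it was 0.426 for Hk2, 0.211 for Aldoc, 0.23 for Eno2, 0.125 for Slc16a1 and 0.177 for Pdha1, beside the value of Egln3 above. The other members called lower or higher by the blocked fit kept their calls in these refits. Some blocked fold changes also moved when a line was left out. The blocked log2 fold change of Slc16a1 was -2.12 without A1005, against -1.37 with all lines. That of Egln3 was -2.88 without A1005, against -2.05 with all lines. That of Pdk4 was 4.72 without A1005 and 2.59 without A1129. Without A1471, Ldhb had 1.53 and the second Aldoa row -2.29.

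Ratios between paralogs of 1 step, each on CPM per kilobase of exon, are descriptions without a test. The log2 ratio of Ldhb to Ldha was -8.44, -6.21 and -7.18 in A1005, A1129 and A1471 with DMSO, -7.96, -5.72 and -5.25 with PD173074 and -6.39, -3.27 and -2.73 with the combination. Ldha remained the more abundant in every library. The log2 ratio of Pdk2 to Pdk1 was -3.39, -2.87 and -2.92 with DMSO and -0.95, 0.90 and 0.069 with the combination, so that Pdk2 stood below Pdk1 in A1005 and above it in A1129 and A1471. That of Slc16a3 to Slc16a1 was -2.47, -2.53 and -1.88 with DMSO and -3.84, -4.18 and -0.86 with the combination, lower in A1005 and A1129 and higher in A1471. That of Aldoc to Aldoa was -4.18, -7.31 and -6.68 with DMSO and -3.78, -5.52 and -5.39 with the combination.

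The log2 ratio of Hk1 to Hk2 was 0.54, -0.40 and 0.081 with DMSO and 0.89, -0.079 and 0.96 with the combination, higher in each line. That of Pfkp to Pfkl was -1.27, -1.20 and -1.32 with DMSO and -2.20, -1.14 and -2.11 with the combination, lower in A1005 and A1471 and near equal in A1129. That of Pfkm to Pfkl was 0.30, 0.16 and -0.014 with DMSO and 0.38, 1.16 and 0.019 with the combination, which differed mainly in A1129. Eno2 to Eno1, -4.03, -4.29 and -4.10 with DMSO and -3.34, -3.85 and -4.23 with the combination, was higher in A1005 and A1129 and lower in A1471. Pfkfb4 to Pfkfb3, 0.090, -2.90 and -2.55 with DMSO and -0.62, -1.09 and -2.26 with the combination, was lower in A1005 and higher in the other two lines. Ratios with Slc2a3 or Pdk4 rested on libraries with few counts and are not given.

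**Figure D3:**
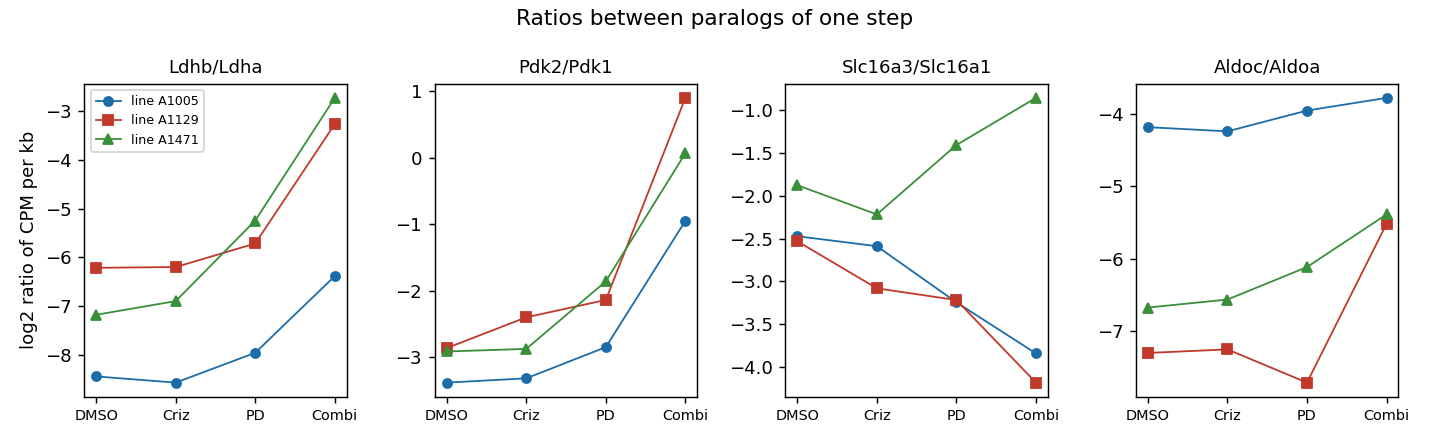
Log2 ratio of the CPM per kilobase of 2 paralogs (y axis) by treatment (x axis), with 1 point a library and a line joining the libraries of each cell line. Ldhb/Ldha and Pdk2/Pdk1 are highest in the combination in all 3 lines, and Slc16a3/Slc16a1 goes up in A1471 and down in A1005 and A1129.

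The 17 enzyme genes from hexokinase to lactate dehydrogenase took 1.62%, 1.26% and 1.48% of all counts in A1005, A1129 and A1471 with DMSO, 1.47%, 1.05% and 1.32% with Crizotinib, 1.54%, 1.15% and 1.4% with PD173074 and 1.09%, 0.714% and 1.2% with the combination. The means were 1.46% ± 0.181 (SD, n = 3) with DMSO and 1.0% ± 0.254 (SD, n = 3) with the combination, a difference of -0.455 percentage points (SD 0.15 over the 3 lines). The share was lower in each line and no test was run on it. Without Gapdh the difference was -0.419 points.

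**Figure D4:**
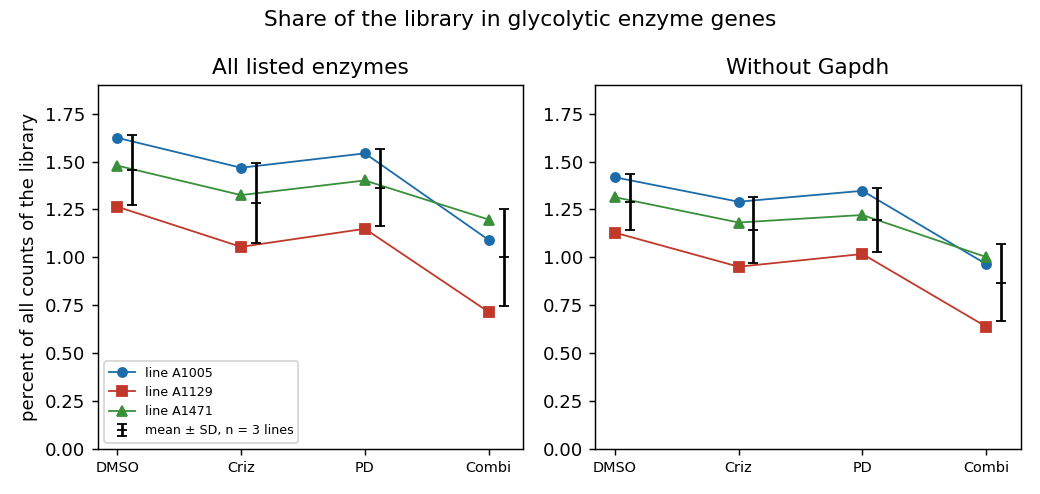
Percent of all counts in the glycolytic enzyme and lactate dehydrogenase genes (y axis from 0) by treatment (x axis), with 1 point a library and black bars for the mean ± SD of the 3 lines, with Gapdh (left) and without it (right). The combination point is the lowest of each line, 0.714% in A1129.

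Members of this pathway are common references in quantitative PCR, and the study's methods name Gapdh and Hprt as such. Its primer list gives Hprt and Rpl13 and no Gapdh. Its qPCR of the combination merged fewer lines than that of the other groups. The values below are sequencing counts in all 3 lines and do not describe that qPCR. In the combination the log2 difference from DMSO in A1005, A1129 and A1471 was -0.75, -0.85 and 0.19 for Gapdh, -0.81, -1.17 and -0.13 for Pgk1 and -0.40, -0.84 and -1.29 for Hprt, a purine salvage enzyme. The span over the 3 lines was 1.04 for Gapdh, 1.04 for Pgk1 and 0.90 for Hprt, the widest of 15 reference genes, and 0.20 for Hsp90ab1 and 0.27 for Ppia, the narrowest. Hprt relative to Gapdh therefore differed by 0.35, 0.018 and -1.48 on the log2 scale.

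Of the 15, Hprt fell unpaired (log2 fold change -0.86, adjusted p = 0.027 unpaired, -0.82, adjusted p = 0.00147 blocked), as did Tubb5 (log2 fold change -0.91, adjusted p = 0.0407 unpaired, -0.93, adjusted p = 0.000793 blocked). Tfrc, the transferrin receptor, fell most (log2 fold change -1.24, adjusted p = 0.00393 unpaired, -1.23, adjusted p = 1.17e-05 blocked). With the block 6 were lower (all genes 26.2%) and 1 higher (28.6%), which was B2m, the light chain of class I histocompatibility molecules (log2 fold change 1.17, adjusted p = 0.185 unpaired, 1.10, adjusted p = 0.000109 blocked). Tbp, Ywhaz and Pgk1 passed only there, with blocked log2 fold changes of -0.37, -0.52 and -0.69. Actb (0.074, -0.36 and 0.39 in the 3 lines), Rplp0 (0.0027, -0.20 and 0.26), Eef1a1 (0.045, 0.0082 and 0.33), Sdha (-0.055, 0.0043 and -0.30), Gusb (0.15, -0.34 and -0.38), Ppia (-0.097, 0.026 and -0.25) and Hsp90ab1 (-0.16, -0.35 and -0.18) passed in neither fit.

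**Figure D5:**
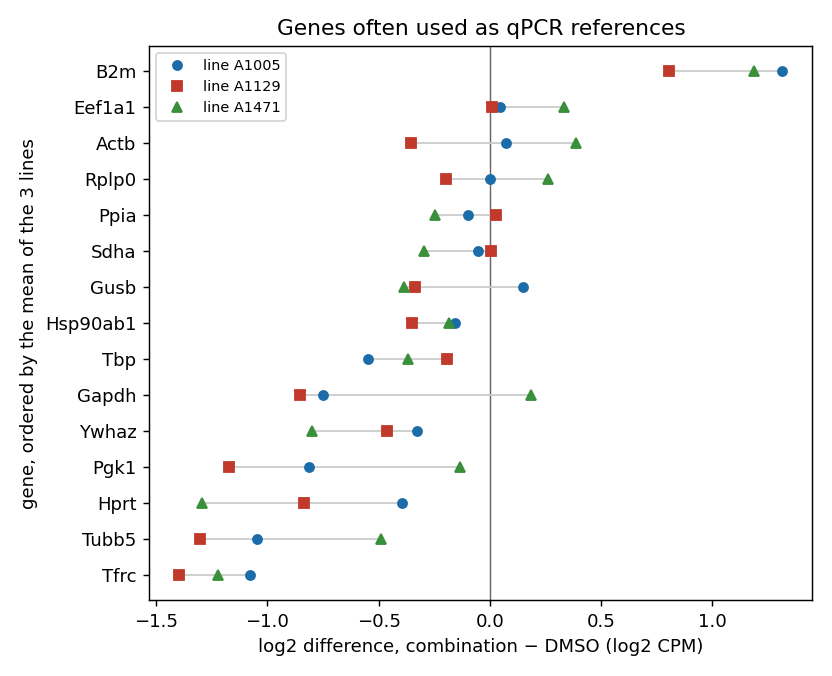
Log2 difference in CPM between combination and DMSO (x axis) for 15 genes often used as qPCR references (y axis, ordered by mean), with 1 point a cell line. Gapdh spans from -0.85 in A1129 to 0.19 in A1471, and Tfrc and Hprt lie below 0 in all 3 lines.

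For the single inhibitors, few members passed a test. With Crizotinib, the unpaired log2 fold change was negative for 29 member rows and positive for 5 (median -0.159, all genes -0.00083). With PD173074, 23 were negative and 11 positive (median -0.101, all genes 9.23e-05). These directions were not tested as a set, and the share of all genes in each direction is not given here. With Crizotinib, no member and no gene of the table passed in the unpaired (0% of all genes) or the blocked edgeR fit (0%). Of all genes, 18 unpaired and 258 with the block had an unadjusted p under 0.05, of the 34 member rows 0 and 2, and DESeq2 and limma-voom called no member either. With PD173074, the unpaired fit called no member and no gene (0%), with 307 genes and 1 member under an unadjusted p of 0.05 and no member called by DESeq2 or limma-voom unpaired. With the block, Vegfa alone fell (log2 fold change -0.43, adjusted p = 0.0445), 1 of 34 rows against 0.52% of all genes lower. Leaving out any 1 line ended that call (0 members in each of the 3 blocked refits). DESeq2 with the block called 2 members, for which no share over all genes is given here. Pdk2 and Ldhb were higher with PD173074 in each line (0.87, 0.56 and 1.05 for Pdk2 and 0.45, 0.33 and 1.79 for Ldhb on the log2 scale) but passed in neither fit (adjusted p = 0.158 and 0.278 with the block).

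The combination was also set against each inhibitor, which shares the combination libraries with the comparison above. Against Crizotinib, the unpaired fit called 1 row higher and 2 lower, against 5.4% and 7.78% of all genes: Pdk2 (log2 fold change 2.54, SE 0.34, adjusted p = 0.00151), Egln3 (log2 fold change -1.93, SE 0.47, adjusted p = 0.0249) and Ankrd37 (log2 fold change -1.26, SE 0.32, adjusted p = 0.0292). With the block 5 were higher and 17 lower (all genes 27.4% and 26%). The blocked log2 fold changes of the higher ones were Pdk4 (3.00), Pdk2 (2.53), Ldhb (2.41), Aldoc (0.96) and Pdha1 (0.27). Those of the lower ones were Slc2a1 (-1.46), Gpi1 (-0.43) and Pfkp (-0.73) above the aldolase step, Tpi1 (-0.28), Pgk1 (-0.46), Pgam1 (-0.55), Eno1 (-0.62) and Pkm (-0.51) with the second Aldoa row (-1.64) in lower glycolysis, Ldha (-0.78), Slc16a1 (-1.38), Slc16a3 (-1.60) and Pdk1 (-0.41) around lactate and pyruvate, and Egln3 (-2.03), Ankrd37 (-1.27), P4ha1 (-0.58) and Vegfa (-0.96) among hypoxia genes.

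Against PD173074, the unpaired fit called Pdk2 higher (log2 fold change 1.74, SE 0.33, adjusted p = 0.0152) and Pgam1 (log2 fold change -0.77, SE 0.17, adjusted p = 0.0287) and Ankrd37 lower (log2 fold change -1.36, SE 0.32, adjusted p = 0.0401), against 0.838% and 3.93% of all genes. With the block 3 were higher and 18 lower (19.6% and 20.2% of all genes). The blocked log2 fold changes were Pdk4 (1.94), Pdk2 (1.75) and Ldhb (1.32) for the higher ones. They were Slc2a1 (-1.22), Gpi1 (-0.42), Pfkl (-0.47) and Pfkp (-0.64) for the upper steps, Tpi1 (-0.51), Pgk1 (-0.57), Pgam1 (-0.79), Eno1 (-0.70) and Pkm (-0.50) for lower glycolysis, Ldha (-0.92), Slc16a1 (-1.31), Slc16a3 (-1.57) and Pdk1 (-0.56) around lactate and pyruvate, and Bnip3 (-0.61), Egln3 (-1.44), Ankrd37 (-1.37), P4ha1 (-0.62) and Vegfa (-0.66) for hypoxia genes.

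Whether the combination differed from the sum of both single effects on the log2 scale was tested as a contrast of all 4 groups. The unpaired fit called no member (0.918% of all genes passed), with 2 members under an unadjusted p of 0.05, 1 called by DESeq2 and 0 by limma-voom. With the block, 1 row lay above the sum and 5 below it, against 5.46% and 10.7% of all genes. Pdk2 lay above (log2 1.65, adjusted p = 0.0217). Slc2a1 (-1.02, adjusted p = 0.00352), Ankrd37 (-1.01, adjusted p = 0.0343), Ldha (-0.66, adjusted p = 0.0249), Vegfa (-0.53, adjusted p = 0.0235) and Pgam1 (-0.52, adjusted p = 0.0417) lay below. Without A1471 the blocked fit called 0 members, without A1129 it called 2 and without A1005 it called 5.

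Other genes around the pathway were read from lists. The shares of all tested genes for such counts were 6.1% higher and 8.28% lower unpaired, and 28.6% and 26.2% with the block. Of 21 tested genes of glycolysis and pyruvate use outside the members, 2 were higher and 1 lower unpaired, and 5 and 7 in the blocked fit. Their median log2 fold change was -0.031. Dlat, a core subunit of pyruvate dehydrogenase, was the lower one (log2 fold change -0.59, SE 0.16, adjusted p = 0.0357). Slc2a6, a lysosomal hexose transporter, rose from 7.34, 7.17 and 13.9 CPM with DMSO to 54.0, 82.4 and 104 with the combination (log2 fold change 3.08, SE 0.58, adjusted p = 0.00775). Pfkfb2, which like Pfkfb3 makes the activator of phosphofructokinase, rose from 3.98, 2.37 and 3.59 CPM with DMSO to 10.3, 11.2 and 6.94 CPM with the combination (log2 fold change 1.51, SE 0.33, adjusted p = 0.0148).

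Of 22 genes that branch off from glycolysis to pentoses, serine, hexosamines and glycogen, 0 were higher and 2 lower unpaired (all genes 6.1% and 8.28%). In the blocked fit 1 was higher and 13 lower (all genes 28.6% and 26.2%). The median of the 22 was -0.45. Psat1 and G6pdx were higher in A1129 and lower in the other two lines, and Gfpt2 had 5 counts with DMSO and 2 with the combination in A1129. Of the 13, the pentose pathway had G6pdx (-0.46, blocked log2 fold change), Pgls (-0.46), Rpe (-0.46) and Rpia, hexosamine synthesis Gfpt1 (-0.47) and Gfpt2 (-1.11), and serine synthesis Psat1 (-0.88) and Psph. The higher one was Phgdh (0.50), the first enzyme of serine synthesis. Psph, the last enzyme of serine synthesis, fell from 38.6, 46.4 and 77.3 CPM with DMSO to 17.5, 19.9 and 25.5 CPM with the combination (log2 fold change -1.37, SE 0.40, adjusted p = 0.045). Rpia, a pentose isomerase, fell from 34.3, 23.2 and 37.0 CPM with DMSO to 17.8, 16.0 and 20.4 CPM with the combination (log2 fold change -0.80, SE 0.23, adjusted p = 0.0422). Of 39 tested further hypoxia response genes, 3 were higher and 3 lower unpaired (all genes 6.1% and 8.28%). In the blocked fit 12 were higher and 14 lower (all genes 28.6% and 26.2%). The median of the 39 was -0.0068. Among them Gpi1 is also a member and Pfkfb2 also on the first list. Stc1, a secreted glycoprotein, fell from 12.6, 42.1 and 29.1 CPM with DMSO to 5.61, 7.9 and 6.41 CPM with the combination (log2 fold change -2.07, SE 0.50, adjusted p = 0.023). Hilpda, a lipid droplet protein (log2 fold change -0.96, SE 0.21, adjusted p = 0.0166), and Jmjd6, a lysyl hydroxylase (log2 fold change -0.81, SE 0.19, adjusted p = 0.0213), fell as well. Cited2, which competes with HIF for its coactivator, rose from 85.4, 68.8 and 30.5 CPM with DMSO to 137, 397 and 252 CPM with the combination (log2 fold change 2.09, SE 0.52, adjusted p = 0.027), least in A1005. Kdm4b, a histone demethylase, rose too (log2 fold change 0.82, SE 0.15, adjusted p = 0.00649).

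Of 14 HIF pathway genes 1 was higher and 2 lower unpaired (all genes 6.1% and 8.28%), and 5 and 2 with the block (28.6% and 26.2%). Crebbp, a HIF coactivator, was the higher one (log2 fold change 0.59, SE 0.15, adjusted p = 0.0288), and Eloc, a subunit of the ligase that marks HIF for degradation, was 1 of the lower ones (log2 fold change -0.58, SE 0.16, adjusted p = 0.0356). Egln1, the prolyl hydroxylase PHD2, fell from 132, 194 and 179 CPM with DMSO to 90.0, 86.4 and 128 CPM with the combination (log2 fold change -0.73, adjusted p = 0.0466 unpaired, -0.73, adjusted p = 0.00178 blocked). Egln2, the hydroxylase PHD1, was higher in each line, 45.8, 47.0 and 35.6 CPM with DMSO against 60.1, 67.5 and 64.9 CPM with the combination, and passed with the block (log2 fold change 0.58, adjusted p = 0.0529 unpaired, 0.60, adjusted p = 0.0013 blocked). A further 3 passed with the block alone, namely Epas1, the HIF-2 alpha subunit (log2 fold change 0.44, adjusted p = 0.876 unpaired, 1.06, adjusted p = 0.0159 blocked), Arnt, the shared beta subunit (log2 fold change 0.41, adjusted p = 0.166 unpaired, 0.44, adjusted p = 0.00654 blocked), and Ep300, another coactivator (log2 fold change 0.45, adjusted p = 0.281 unpaired, 0.49, adjusted p = 0.00949 blocked). Hif3a (log2 fold change 0.99, adjusted p = 0.862 unpaired, 0.93, adjusted p = 0.155 blocked) and Arnt2 (log2 fold change -1.37, adjusted p = 0.739 unpaired, -1.52, adjusted p = 0.0533 blocked) were at most 1 count outside A1005 and passed in neither fit.

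Of 9 tested upstream regulators, which include the member Hif1a, 1 was higher and 0 lower unpaired (all genes 6.1% and 8.28%). With the block 1 was higher and 3 lower (all genes 28.6% and 26.2%). Mtor, the growth kinase, rose (log2 fold change 1.07, SE 0.16, adjusted p = 0.00234). Myc had 403, 539 and 587 CPM with DMSO and 217, 189 and 449 with the combination and was lower in each line (log2 fold change -0.84, adjusted p = 0.131 unpaired, -0.90, adjusted p = 0.00243 blocked). Txnip, which glucose metabolites induce and which restrains glucose uptake, had 165, 93.9 and 72.8 CPM with DMSO and 124, 50.5 and 114 CPM with the combination, lower in A1005 and A1129 and higher in A1471 (log2 fold change -0.20, adjusted p = 0.848 unpaired, -0.18, adjusted p = 0.611 blocked).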

How the data were processed

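RNA was sequenced from 12 tumoursphere libraries, 4 treatments in each of 3 lines. According to the labels and the study's methods, the authors sequenced on a NextSeq500, and the submitters' processing notes name bcl2fastq, STAR and HTSeq and the build mm10. The deposited table holds raw read counts per Ensembl gene, without normalization. Strand use and annotation release are not given in the sources used here. Totals ran from 13031492 to 17750476 counts, and 66 library pairs held no duplicate.

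The members and gene lists were chosen with earlier results of these data known. Genes were kept with edgeR's filterByExpr by treatment (the equivalent of 10 counts in at least 3 libraries, the group size, and 15 in all). The 13836 kept genes were scaled by TMM and tested with edgeR 4.0.16 (R 4.3.3). Testing used 1 quasi-likelihood fit over 12 libraries with 6 contrasts and a Benjamini-Hochberg threshold of 0.05. The study's analysis was unpaired, so this fit had no block. The replicate number is the line, so samples are truly paired: deviations from group means correlated at 0.766 to 0.962 within a line (18 pairs) and at -0.663 to -0.047 between lines. The fit with the line as a block called 27 members in combination against DMSO, and its values stand beside the unpaired ones. All members are named, and list genes by a rule (the lowest and highest called ones, and listed regulators). Dlat, Crebbp, Eloc, Ep300 and the pentose, hexosamine and serine genes given with blocked values alone were named after their values were seen. Per-line log2 differences used a prior count of 2, and RPKM the union exon length of GENCODE M21. DESeq2 1.42.0, limma-voom 3.58.1, other scalings and filters and omission of a line were alternatives. The code was tested on simulated data. Unpaired p-values rest on the spread between lines within a treatment, and take the libraries of a line as independent although they are paired. Blocked p-values rest on how far the response to treatment varied between lines, each 1 tumour, with level differences between lines removed.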

Additional observations from a re-analysis of the deposited data

Results flagged for a closer look

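For 8 members 1 line went the opposite way from the other two in the combination against DMSO, and these differences between lines were not tested. They are 23.5% of the tested member rows. Of all tested genes, 32.5% were lower and 34.3% higher in all 3 lines, and the remainder were neither. The value of the odd line, a log2 difference in CPM, was 0.19 for Gapdh in A1471, -0.31 for Hif1a in A1471 and -0.60 for Pfkfb4 in A1005. In A1129 it was -0.92 for Pfkfb3, 0.33 for Hk1, 0.099 for Pfkm and 0.0054 for Hk2. It was 0.35 for Slc2a3 in A1471, where the gene had 3 counts with DMSO and 4 with the combination, so that no difference can be read.

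For 6 members the effect of the combination differed from the sum of the single effects in edgeR's fit with the line as a block. Of them 1 lay above the sum (2.94% of member rows) and 5 below it (14.7%), against 5.46% and 10.7% of all genes. The departure on the log2 scale was -1.02 for Slc2a1, -0.52 for Pgam1, -0.66 for Ldha, 1.65 for Pdk2, -1.01 for Ankrd37 and -0.53 for Vegfa. None of the 6 passed in the unpaired fit, and the blocked fit called none of them without A1471.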

How the results depend on the processing

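The number of members called in the combination against DMSO was 4, and it was 27 with the replicate block, 7 with DESeq2, 25 with DESeq2 and the block, 25 with total counts and the block and 1 with the compared groups alone. Against Crizotinib the count was 3, and 22, 5, 21, 20 and 1 in the same order. Against PD173074 it was 3, with 21 (block), 22 (DESeq2 and block), 20 (total counts and block), 0 (compared groups alone), 1 (no filter) and 1 (log2 fold change of at least 1.5). That limit also gave 3 in the combination against DMSO, without Pgam1. PD173074 against DMSO had 0, with 1, 2 and 1 under the block, DESeq2 with block and total counts with block. The departure from additivity had 0, with 6, 11 and 5 under those and 1 with DESeq2 unpaired. An alternative chosen after seeing the data, the block without the combination library of A1471, gave 24, 23, 21, 1 and 10. Leaving out 1 line, unpaired or blocked, gave 0 to 22 in the combination against DMSO, 0 to 19 against Crizotinib, 0 to 19 against PD173074 and 0 to 5 for the departure. Unpaired, none of the members passed without A1471. Why the counts moved was not tested. Over all genes the block moved the calls from 1990 to 7578 in the combination against DMSO, 1823 to 7389 against Crizotinib, 660 to 5506 against PD173074, 0 to 296 for PD173074 and 127 to 2241 for the departure. For the other settings, here and above, no share over all genes is given. Whether their member counts only followed the calls over all genes therefore cannot be read. Signs turned for 5 members, none of them called in the unpaired fit. Pfkfb4 was 0.35 with the block, 0.41 with DESeq2 and block, 0.44 with limma-voom, 0.0036 with total counts, 0.39 with total counts and block, 0.12 without the A1471 combination library and -0.32 to 0.87 with a line left out. Hk1 was 0.012 with DESeq2 and block, 0.00080 with total counts, 0.032 with total counts and block, 0.058 without the A1471 combination library and -0.19 to 0.10 with a line left out. With a line left out, Pfkm was -0.20 to 0.032, Pfkfb3 -0.44 to 0.32 and Hif1a -0.11 to 0.48. Of these, Pfkfb4 passed with the block without A1005 (adjusted p = 0.0151). The block called 23 further members and lost none of the 4. The glycolytic share differed by -0.362 to -0.491 points under its 3 alternatives. Car9, Slc2a3, Pdk4 in A1471 and the second Aldoa row are limited by depth.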

Other observations

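Among the further hypoxia response genes, several that the rule for names did not reach differed within each line and were chosen after their values were seen. Ero1l, an oxidase of protein folding, had 743, 170.1 and 813 CPM in A1005, A1129 and A1471 with DMSO and 158, 53.6 and 331 with the combination (log2 fold change -1.67, adjusted p = 0.273 unpaired, -1.71, adjusted p = 5.13e-05 blocked). Plod2, a collagen lysyl hydroxylase, had 256, 105 and 369 CPM with DMSO and 107, 31.6 and 199 with the combination (log2 fold change -1.11, adjusted p = 0.393 unpaired, -1.28, adjusted p = 6.22e-05 blocked). Angptl4, a secreted inhibitor of lipoprotein lipase, had 23.4, 0.395 and 0.0691 CPM with DMSO and 81.4, 4.89 and 123 with the combination (log2 fold change 3.13, adjusted p = 0.432 unpaired, 4.83, adjusted p = 0.00792 blocked). In A1471 it had 1 count with DMSO.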
